A study of Mus musculus with 3 samples.

Results

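The Ugt2 and Ugt3 genes encode UDP-glycosyltransferases, enzymes of the endoplasmic reticulum membrane that join a sugar to small fat-soluble molecules so that these can leave the body in bile or urine. The Ugt2 enzymes use UDP-glucuronic acid and take steroids, bile acids, retinoids and many drugs as acceptors, whereas the Ugt3 enzymes are known to use other UDP-sugars. Liver is a main site of glucuronidation, and several ligand-activated nuclear receptors that pair with retinoid x receptor α (RXRα) are known to act on genes of this pathway.

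The genes were taken by name, namely Ugt2a3, Ugt2b1, Ugt2b5, Ugt2b34, Ugt2b35, Ugt2b36, Ugt2b37, Ugt2b38, Ugt3a1 and Ugt3a2, and all 10 were found among the 22367 protein-coding genes of GENCODE M1 on the mouse NCBI37/mm9 genome. The binding data came from chromatin immunoprecipitation followed by sequencing (ChIP-seq) of livers of male wild type C57BL/6 mice aged 3 months, for which the labels name no treatment. There were 3 libraries, namely 1 precipitated with an anti-RXRα antibody, 1 of input chromatin that was not precipitated and 1 precipitated with an antibody against retinoic acid receptor α (RARα). With 1 library per antibody there was no replicate, no p-value was computed, and the values describe these libraries and not the variation between mice. Whole liver holds several cell types, and the cell type in which a site was bound cannot be told apart here.

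The signal is the number of extended reads that cover a bin of 32 bp, and the tracks held 9999939 reads for RXRα and 9999292 for input. The input had a mean of 0.603 per bin, so 1 read more or less moves a single bin strongly, while the RARα list of 143280 peaks holds no read numbers, so that no counting interval could be set on its scores. An RXRα region is a run of bins in which RXRα reached 20 times the local or the mean input, whichever was larger. A filtered RARα peak has a score over 20 and its summit within 10 kb of the gene start. As a check on the tissue, all 4 hepatocyte genes looked at (Alb, Apoa1, Ttr and Serpina1a) had an RXRα region within 10 kb of the start together with a filtered RARα peak, compared to 1 of 4 genes of heart, astrocyte, pancreas and skin. Of 4 genes of other liver cells, 2 had a filtered RARα peak and 0 had an RXRα region within 10 kb of the start, although the body of Stab2, an endothelial gene, held 15 regions further inside.

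The 8 Ugt2 genes lie in 1 cluster of 534437 bp (chr5:87318792-87853228), of which Ugt2b35 alone is transcribed from the plus strand. Ugt3a1 and Ugt3a2 lie next to each other on the plus strand of chromosome 15, between 9209584 and 9300710. Ugt2b5 and Ugt2b38 shared 97.1% of their aligned coding bases, Ugt2b5 and Ugt2b37 94.7%, Ugt2b37 and Ugt2b38 94.1%, and Ugt3a1 and Ugt3a2 93.3%. Ugt2a3 shared between 67.7% and 70.5% with the Ugt2b genes. Reads from near-identical copies can be placed on the wrong copy, so the uniqueness of the sequence is given beside the binding.

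The sequence directly before the start is shown for 9 of the genes because RXRα signal piled up there. The 140 bases before the start are given 5′ to 3′ on the strand of the gene (NCBI37/mm9). Capitals mark a match with up to 3 mismatches to the palindrome of hepatocyte nuclear factor 1 (HNF1), which is GTTAATNATTAAC, where N is any base.
Ugt2a3, chr5:87766221-87766360, minus strand: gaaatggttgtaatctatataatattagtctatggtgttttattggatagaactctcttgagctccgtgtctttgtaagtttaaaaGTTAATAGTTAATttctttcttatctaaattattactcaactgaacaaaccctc
Ugt2b1, chr5:87355556-87355695, minus strand: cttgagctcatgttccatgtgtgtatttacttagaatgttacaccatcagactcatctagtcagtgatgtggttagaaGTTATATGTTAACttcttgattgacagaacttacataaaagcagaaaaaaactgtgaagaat
Ugt2b5, chr5:87569366-87569505, minus strand: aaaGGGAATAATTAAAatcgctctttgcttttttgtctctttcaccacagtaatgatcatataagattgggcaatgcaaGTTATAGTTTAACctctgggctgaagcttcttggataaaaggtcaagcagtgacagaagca
Ugt2b34, chr5:87335963-87336102, minus strand: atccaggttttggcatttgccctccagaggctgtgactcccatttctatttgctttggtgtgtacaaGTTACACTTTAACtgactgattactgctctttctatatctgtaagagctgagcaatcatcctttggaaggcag
Ugt2b35, chr5:87429745-87429884, plus strand: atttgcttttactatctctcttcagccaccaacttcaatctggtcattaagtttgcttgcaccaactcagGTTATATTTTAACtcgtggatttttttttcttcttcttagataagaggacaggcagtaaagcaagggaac
Ugt2b36, chr5:87521581-87521720, minus strand: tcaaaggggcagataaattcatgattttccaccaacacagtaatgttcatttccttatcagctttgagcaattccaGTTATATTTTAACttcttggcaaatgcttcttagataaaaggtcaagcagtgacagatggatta
Ugt2b37, chr5:87683830-87683969, minus strand: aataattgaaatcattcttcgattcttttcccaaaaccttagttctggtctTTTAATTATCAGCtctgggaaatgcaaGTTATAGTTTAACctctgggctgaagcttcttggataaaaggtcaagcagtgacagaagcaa
Ugt2b38, chr5:87853229-87853368, minus strand: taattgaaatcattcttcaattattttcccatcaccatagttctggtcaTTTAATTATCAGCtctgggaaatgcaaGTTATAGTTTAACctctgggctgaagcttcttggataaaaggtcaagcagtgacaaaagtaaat
Ugt3a1, chr15:9209444-9209583, plus strand: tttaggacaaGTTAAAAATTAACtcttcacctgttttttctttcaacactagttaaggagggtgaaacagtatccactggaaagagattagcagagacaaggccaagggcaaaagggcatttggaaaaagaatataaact

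With up to 2 mismatches, the limit chosen first, the palindrome was present in the 300 bases around the start (250 before and 50 from it) in 2 of these 9 genes, compared to 1.17% of all protein-coding genes. These were Ugt3a1 with 1 mismatch at −130 to −118 and Ugt2a3 with 2 mismatches at −54 to −42, where negative positions count bases before the start. The limit of 3 mismatches was chosen after these sequences had been seen. With it all 9 genes had a match, compared to 7.78% of all genes, and the 7 Ugt2b genes had 1 that ended between −61 and −49 (the match closest to the start), namely Ugt2b5, Ugt2b37 and Ugt2b38 with GTTATAGTTTAAC, Ugt2b35 and Ugt2b36 with GTTATATTTTAAC, Ugt2b1 with GTTATATGTTAAC and Ugt2b34 with GTTACACTTTAAC. Related promoters are not independent of each other, and Ugt2b37 and Ugt2b38 shared 94.5% of 292 aligned bases among the 300 before their starts. No direct repeat of the nuclear receptor half-site AGGTCA (the forms AGTTCA and also GGGTCA or else GGTTCA were accepted) with 1 to 5 bases between the copies, on either strand, was found around the 9 starts, and 0.438% of all starts had one. With up to 2 mismatches from 2 copies of AGGTCA, a search that was also added later, 3 of 9 starts had a repeat, compared to 11.7% of all.

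Every one of the 10 genes had an RXRα pile-up at its start. It was the tallest within 10 kb only at Ugt2b1, Ugt3a1 and Ugt3a2, and the other genes had a taller one further away. Within 300 bp of the start, the highest RXRα bin was 31 at Ugt2a3, 47 at Ugt2b1, 40 at Ugt2b5, 39 at Ugt2b34, 31 at Ugt2b35, 35 at Ugt2b36, 51 at Ugt2b37, 35 at Ugt2b38, 56 at Ugt3a1 and 50 at Ugt3a2. These bins lay between 87 bp before the start and 52 bp after it, and the input in the same bins was between 1 and 7. Over all protein-coding genes the highest bin within the same distance had a median of 4 and an upper quartile of 15, and 8.14% of genes reached 31, the lowest value among the 10. The highest input bin within 300 bp was also above that of most genes, with a median of 5.5 (2 to 7) for the 10 genes and 2 for all genes. The plot of the signal within 1 kb shows these pile-ups with the RARα peaks beside them, whose scores varied from no listed peak to 85.

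**Figure D1:**
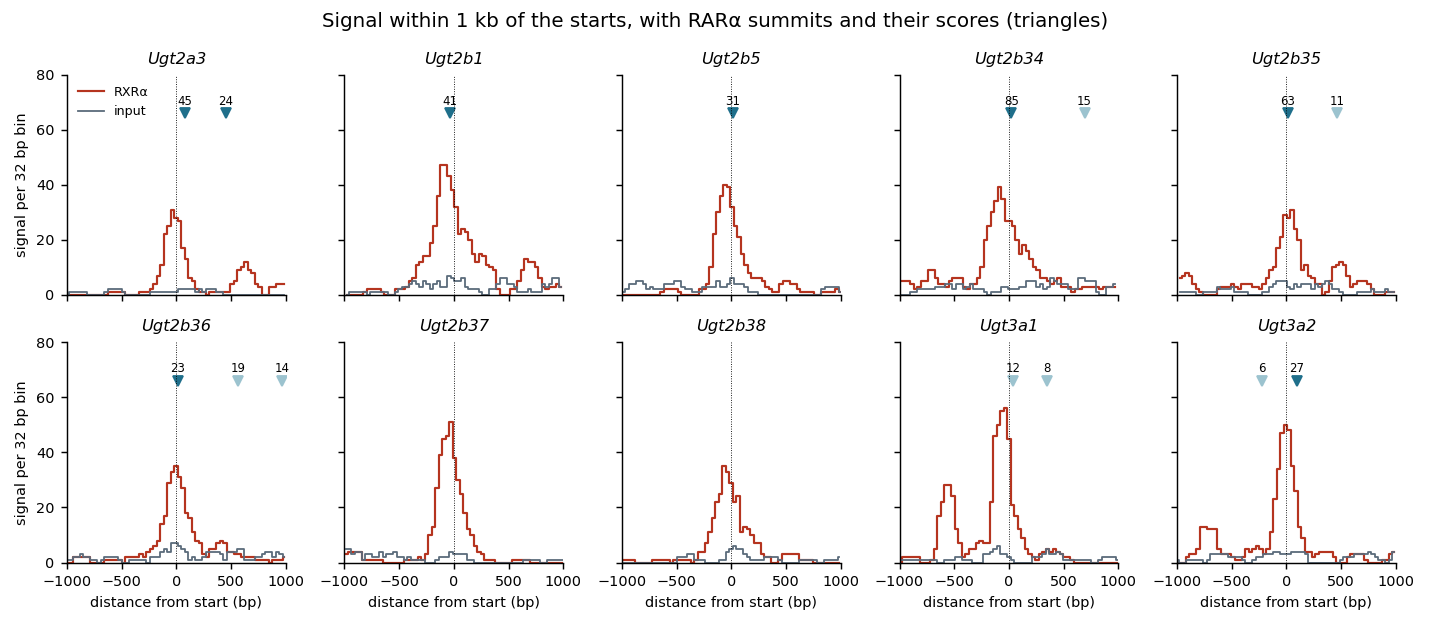
RXRα (red) and input (grey) signal per 32 bp bin against the distance from the gene start in bp, 1 panel per gene, in the direction of transcription. Triangles mark summits of listed RARα peaks with their scores (dark over 20, light up to 20), and every gene has an RXRα pile-up of 31 to 56 at its start while 7 of 10 have a filtered RARα summit within 1 kb.

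A filtered RARα peak was present within 10 kb in 7 of 10 genes, compared to 52.2% of all protein-coding genes. The same 7 genes had it within 1 kb, compared to 40.9% of all genes. The highest peak was that at the Ugt2b34 start with a score of 85, followed by 63 at Ugt2b35, 60 upstream of Ugt2b5, 45 at Ugt2a3, 41 at Ugt2b1, 27 at Ugt3a2 and 23 at Ugt2b36. The last of these was close to the threshold. Ugt2b37, Ugt2b38 and Ugt3a1 had no filtered peak, and the highest scores listed within 10 kb of them were 12, 14 and 12. At Ugt3a1 this peak lay at the start itself (summit at +41) and overlapped an RXRα region, whereas at Ugt2b37 and Ugt2b38 the highest listed peaks were intronic, at +4914 and +1648.

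There were 13 filtered RARα peaks near the 10 genes, 7 of which had their summit within 100 bp of a start, 5 further downstream and 1 further upstream. Their median score was 34, compared to 33 for all 32946 peaks over 20 in the list. Ugt2a3 had 5 of them, at +80 (score 45), +450 (24), +1825 (39), +3440 (34) and +4755 (21), so that high scores ran from its first exon into its introns. Ugt2b1 had 2, at −40 (41) and +5385 (22), and Ugt2b5 had 2, at +10 (31) and −2945 (60). The peak at −2945 of Ugt2b5 (chr5:87572171-87572451) was the one filtered peak that lay outside a promoter and a gene body, and it had the highest RXRα enrichment of the 13, a mean RXRα signal 20.9 times that of input.

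Most of the listed RARα peaks were weaker and lay inside the genes. Counting all scores, 90 peaks lay within 10 kb of the 10 starts (88 different ones, since 2 at or just past the 3′ end of Ugt2b1 lay within 10 kb of both the Ugt2b34 and the Ugt2b1 start), 77 of them with a score up to 20. Of the 90, 73 were downstream of the start and 17 upstream, and 57 had their summit in an intron. Listed RARα peaks covered a median of 21.6% of the 10 kb downstream of the start (4.56% to 59.4%) and 3.96% of the 10 kb upstream. Over all genes these medians were 3.6% and 3.39%, and all 10 genes were above the downstream median. High cover was not limited to these genes. Of the hepatocyte genes, Alb, Ttr and Apoa1 had 99.1%, 88.9% and 73.4% of the downstream 10 kb covered, and Serpina1a 11.9%. Among the 10 genes Ugt2b1 was covered most, with 17 of its 18 listed peaks downstream and 59.0% of its gene body inside a listed peak. The bodies of Ugt2b34, Ugt2b35 and Ugt2a3 were covered to 45.5%, 42.3% and 34.3%, those of Ugt2b36 and Ugt2b5 to 13.5% and 12.3%, and those of Ugt2b38, Ugt2b37, Ugt3a1 and Ugt3a2 to 8.21%, 3.85%, 2.58% and 1.29%. The genes thus ranged widely, and the 4 with the lowest cover include all 3 that had no filtered RARα peak.

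These weaker peaks carried little RXRα. The 62 peaks downstream of a start with a score up to 20 had a median RXRα enrichment of 1.37 over input, and in 19 of them RXRα had fewer reads than input. Where the input of a peak was below the genome mean, the mean was used for the enrichment. The 13 filtered peaks had a median of 5.67, and in 1 of them RXRα had fewer reads than input (the Ugt2a3 peak at +4755, with 0.323). Upstream, the 15 peaks with a score up to 20 had a median of 4.90. The local input at the listed peaks had a median of 2.33 times the genome mean. It was higher at the 13 filtered peaks, with a median of 3.69 (0.766 to 6.51), than at the 77 with a score up to 20, with 1.99.

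**Figure D2:**
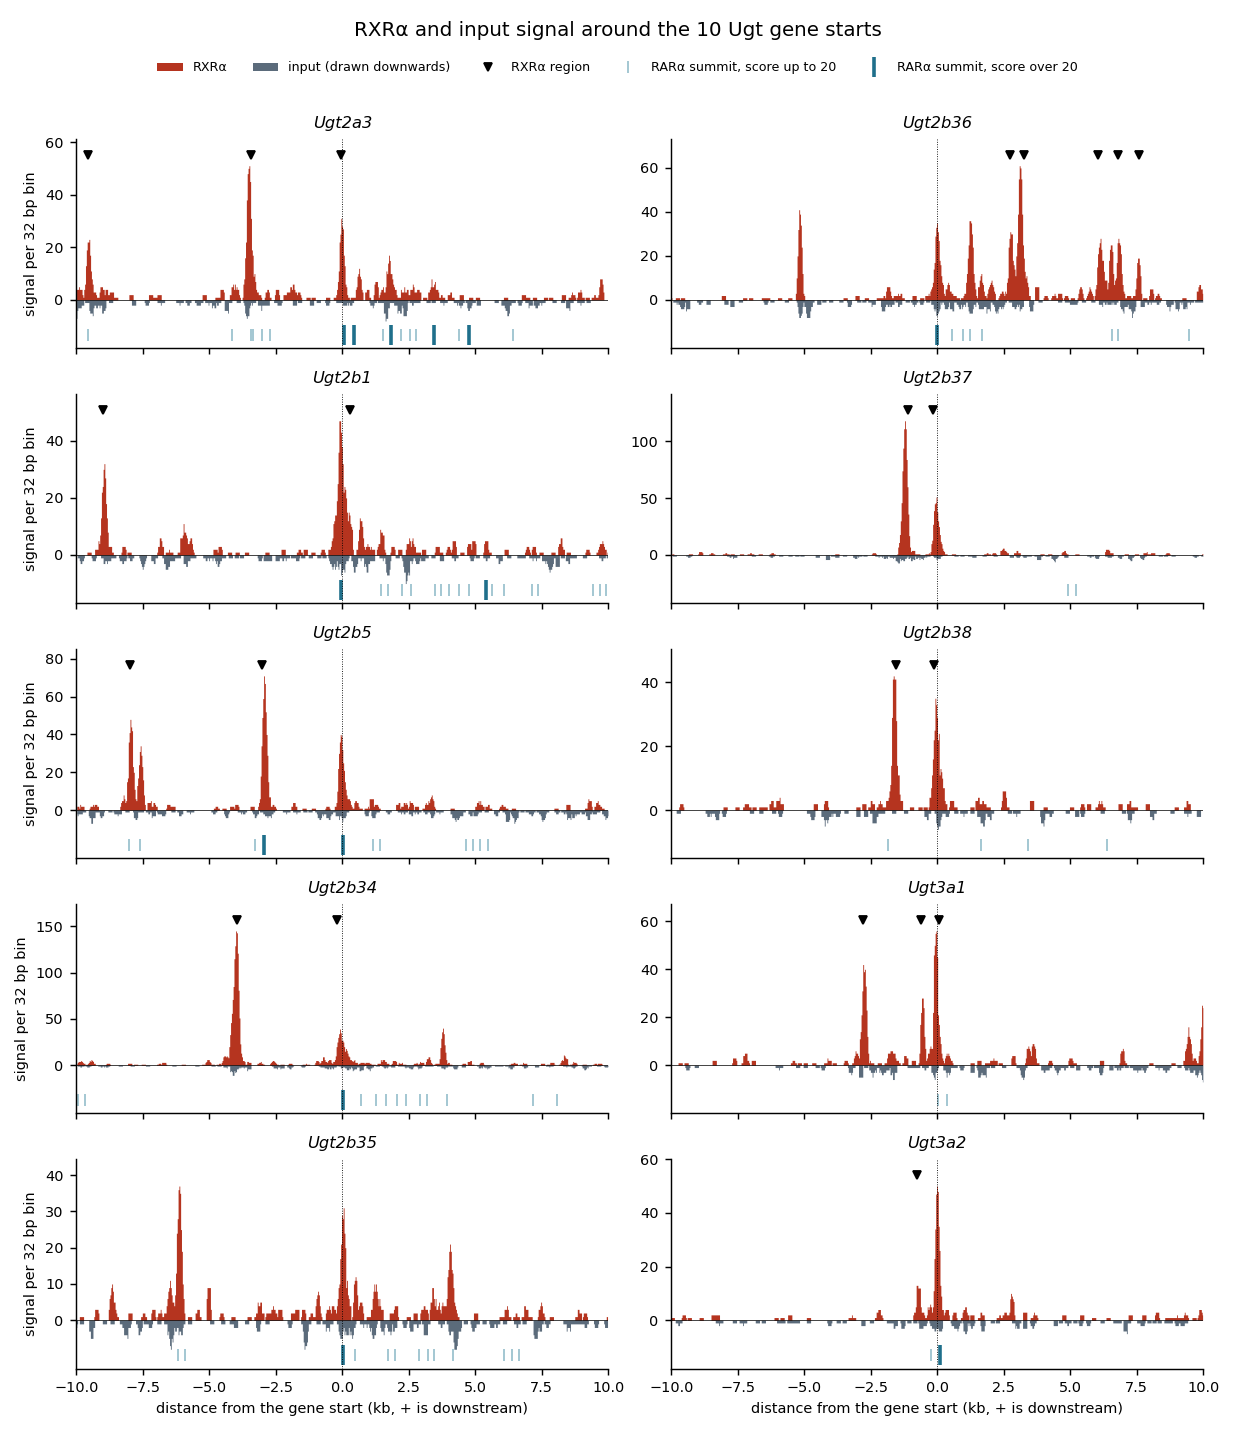
Signal per 32 bp bin of RXRα (red, upwards) and input (grey, downwards) within 10 kb of each start in the direction of transcription, with RXRα regions as black triangles and RARα summits as ticks (dark over 20, light up to 20). Each panel has its own scale. RXRα forms narrow pile-ups at the starts and upstream of many of them, while at Ugt2b36 the called regions lie in introns. RARα summits spread through the bodies of Ugt2a3, Ugt2b1, Ugt2b34 and Ugt2b35 in particular.

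An RXRα region was present within 10 kb in 9 of 10 genes, compared to 39.8% of all genes, and within 1 kb in 7 of 10, compared to 21.5%. There were 22 regions in all, with a median width of 128 bp. The highest ratio to input within a region had a median of 33.2 (21.6 to 79.6), compared to 34.8 for all 42117 RXRα regions of the genome. In 13 of the 22 the bin of highest ratio had no input read and was divided by the mean input. The size of such a ratio thus rests on RXRα alone.

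Ugt2b34 had the highest RXRα pile-up of the family. The signal reached 145 in a bin at −3991, and the region there (chr5:87339809-87339968) held 108 reads of RXRα and 4 of input, with no listed RARα peak on it. The second region of Ugt2b34 had 25 over an input of 0 at −183, its bin of highest ratio. Values given as RXRα over input for a region are those of this bin, which need not be its tallest. Ugt2b37 came next, with a signal of 118 at −1212, in a region (chr5:87684929-87685088) of 96.8 RXRα reads and 2.80 input reads, where reads are counted in parts if they cover a region in part. Ugt2b5 had a pair of upstream regions, at −3004 (49 over 1) and −7964 (48 over 0), and reached 71 at −2940. Ugt3a1 had 3, at −2783 (42 over 0), −607 (22 over 0) and +65 (17 over 0). Ugt2b38 had 2, at −133 (22 over 0) and −1541 (28 over 0), and Ugt2a3 had 3, at −37 (31 over 1), −3429 (31 over 1) and −9541 (22 over 1).

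Of the other genes, Ugt2b36 had its regions inside the gene. All 5 regions of Ugt2b36 lay inside introns, with their bins of highest ratio between +2747 and +7579. These bins held 19 to 31 over an input of 0 or 1. The tallest signal was 61 at +3099, in the region centred at +3179, where the input reached 5. Ugt2b1 had a single bin of 14 over 0 at +274 in a coding exon and a region of 24 over 1 at −9006. Ugt3a2 had 1 region, a single bin of 13 over 0 at −744, which is 2.60 reads and just past the threshold. Its taller pile-up of 50 at the start was not called because the input there was 3, a ratio of 16.7. Ugt2b35 had no region within 10 kb. Its start reached 31 over an input of 2 and a pile-up at −6124 reached 37, and the highest ratio of any bin was 18.3, just under the threshold. Thus the absence of a called region at the starts of Ugt2b35, Ugt3a2, Ugt2b36 (35 over 7) and Ugt2b5 (40 over 3) does not mark an absence of RXRα signal. At Ugt2b1, too, the pile-up at the start (47 over 3) was not called, and the region near it was the single bin at +274.

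The strongest upstream region of Ugt2b34 is shown with matches to the half-sites in capitals, of which there were 2, on the gene's strand (chr5:87339809-87339968, minus strand).
Ugt2b34 upstream region: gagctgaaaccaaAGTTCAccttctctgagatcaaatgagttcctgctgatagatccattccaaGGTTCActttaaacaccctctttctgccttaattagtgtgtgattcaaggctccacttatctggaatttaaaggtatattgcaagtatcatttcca
They are too far apart to count as a direct repeat. In the 201 bases around the bin of highest ratio, 0 of the 22 regions held a direct repeat of exact half-sites, compared to 2.98% of all RXRα regions. With up to 2 mismatches 6 of 22 held one, compared to 28.5%. The HNF1 palindrome with up to 2 mismatches was in 1 of 22, that at the Ugt2a3 start, compared to 3.35% of all regions. In the 201 bases around the 13 filtered RARα summits, 0 held an exact direct repeat (0.677% of all filtered peaks) and 0 held the palindrome (1.48%). With up to 3 mismatches the palindrome was in 5 of 13, all at starts of Ugt2b genes, compared to 5.99% of all filtered peaks, and in 4 of the 22 RXRα regions, compared to 11.3% of all regions. This limit was chosen after the sequences before the starts had been seen. The 5 matches at RARα summits are among those already counted at the starts, so they are no separate observation.

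Some RXRα regions of different genes sat in related sequence. Of the 231 pairs among the 22 regions, extended by 100 bases on each side, 4 aligned over at least 100 bases with at least 70% identity. Ugt2b37 and Ugt2b38 made up 2 of these, with 95.3% identity for the regions next to the start (320 bases) and 88.2% for the regions further upstream (357 bases). The third pair was that centred at −575 of Ugt3a1 and at −744 of Ugt3a2, with 90.7% over 225 bases. The fourth joined the region at −9556 of Ugt2a3 with an intronic one of Ugt2b36, at 72.8% over 184 bases. Neither region of Ugt2b5 aligned in this way with one of Ugt2b37 or Ugt2b38, although their coding sequences are the closest to its own. The pile-up at the Ugt2b5 start (40 over 3) was not a called region and so was not compared. Among the 300 bases before the starts, Ugt2b5 shared 89.38% of 292 aligned bases with Ugt2b37 and 89.55% of 287 with Ugt2b38. The upstream pair of Ugt2b37 and Ugt2b38 is shown with the bases that differ in capitals.
Ugt2b37, chr5:87684929-87685088, minus strand: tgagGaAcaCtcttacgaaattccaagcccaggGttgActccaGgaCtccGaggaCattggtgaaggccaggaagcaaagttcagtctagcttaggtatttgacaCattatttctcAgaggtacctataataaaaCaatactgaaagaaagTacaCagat
Ugt2b38, chr5:87854747-87854913, minus strand: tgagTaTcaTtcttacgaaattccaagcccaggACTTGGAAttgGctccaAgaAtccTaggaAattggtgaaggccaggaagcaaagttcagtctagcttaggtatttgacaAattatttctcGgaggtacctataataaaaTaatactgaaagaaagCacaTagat
Of the 160 aligned bases 146 were the same. The Ugt2b37 copy held a highest RXRα signal of 118 and the Ugt2b38 copy 42. Of the 32-base words in the regions 80% and 88.3% occurred once in the genome, and the study describes its mapped reads as unique, without saying what was done with reads that fit both copies.

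RARα and RXRα were co-localized, that is a filtered RARα peak overlapped an RXRα region by at least 25% of the narrower of them, in 4 of 10 genes, compared to 23.5% of all genes. These were Ugt2a3, Ugt2b1 and Ugt2b34 at their starts and Ugt2b5 at −2945, with 1 peak each. At Ugt2b1 it rested on the single bin at +274, which held 2.80 RXRα reads and lay under a RARα peak of 1080 bp. Ugt2b35, Ugt2b36 and Ugt3a2 had a filtered RARα peak without an RXRα region on it. Ugt2b37, Ugt2b38 and Ugt3a1 had RXRα regions and no filtered RARα peak within 10 kb, a combination found in 7.19% of all genes. Of the 22 RXRα regions, 9 overlapped a listed RARα peak of any score, 4 of these a filtered one, and 13 had none. The region of Ugt2b5 near −7964, for example, lay under RARα peaks with scores of only 18 and 10 and RXRα enrichments of 12.6 and 24.9. The share of all RXRα regions that overlap a RARα peak is not given here, nor is the share of all genes with a filtered peak off any region. Whether these counts are unusual thus cannot be said.

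Summed over 10 kb on each side of the start, RXRα exceeded input at all 10 genes. The ratio was highest at Ugt2b34 with 3.32 (95% counting interval 2.78 to 3.98, from 541 RXRα and 163 input reads). It was 2.59 (2.20 to 3.05) at Ugt2b36, 2.50 (2.02 to 3.10) at Ugt2b37, 2.25 (1.85 to 2.74) at Ugt2a3 and 2.24 (1.83 to 2.76) at Ugt3a1. It was 2.09 (1.64 to 2.69) at Ugt2b38, 1.93 (1.59 to 2.33) at Ugt2b35, 1.91 (1.61 to 2.28) at Ugt2b5, 1.74 (1.44 to 2.10) at Ugt2b1 and 1.61 (1.26 to 2.07) at Ugt3a2. The interval of Ugt2b34 lay above those of all the others except Ugt2b36 and Ugt2b37, and no pair of neighbours in this order had intervals that were apart. The intervals are exact binomial ones from the read numbers and cover counting error only.

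The median ratio of the 10 genes was 2.17, compared to 1.09 for all genes, and every one of the 10 lay above that median. Within 1 kb of the start the median was 3.99 (2.34 to 6.62), compared to 1.79 for all genes. The order of the genes changed there. Ugt2a3 was first with 6.62 (3.29 to 15.3) and Ugt3a1 second with 5.99 (3.70 to 10.4), whereas Ugt2b36, second over the wider window, was last with 2.34 (1.53 to 3.71). Over the gene bodies the ratio was lower, with a median of 1.5 against 1.0 for all genes. Ugt2b36 had the highest value there, 2.14 (1.84 to 2.48), and Ugt2b5 the lowest, 0.841 (0.658 to 1.07), the one gene below the median of all genes.

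**Figure D3:**
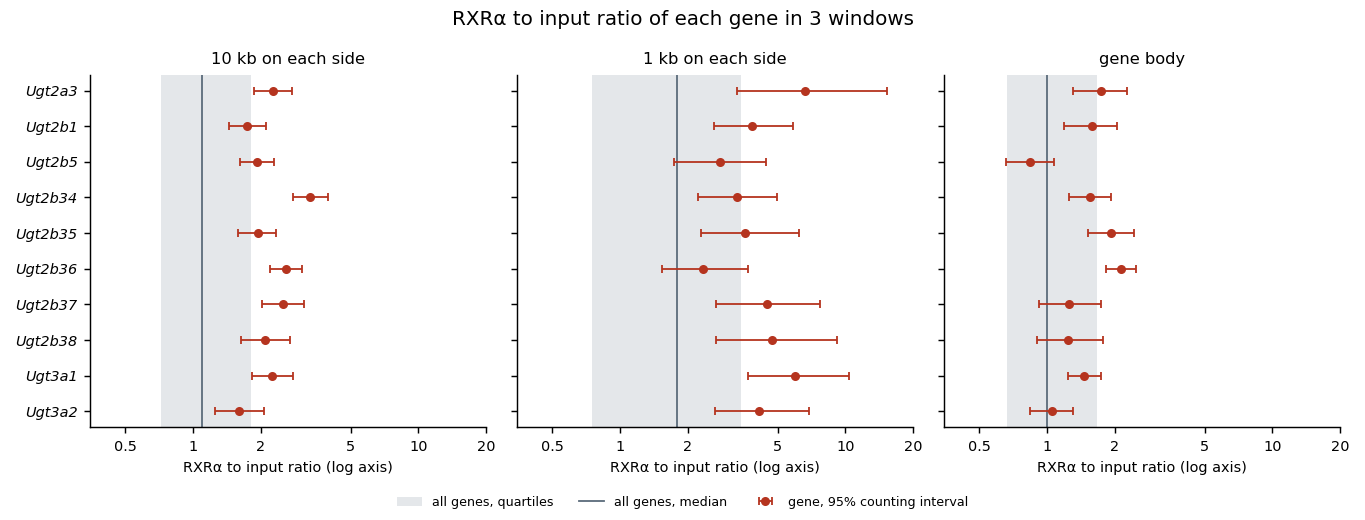
RXRα to input ratio (log axis) of each gene over 10 kb on each side of the start, 1 kb on each side, and the gene body. Points are the ratios, bars their 95% counting intervals, the grey band the quartiles and the line the median of all protein-coding genes with a value (22367, 22207 and 22021 genes from left to right), and the genes lie above the all-gene median in the first window without exception (1.61 to 3.32 against 1.09).

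The input itself, given as a check on repeated sequence, was raised at these genes, but not at these alone. Within 10 kb of the start it was 1.29 to 2.80 times the genome mean, with a median of 2.09, compared to 1.07 for all genes. The median was 2.65 for the 4 hepatocyte genes and 2.34 for the 8 Ugt1a genes. For the genes of other liver cells and of other tissues it was 0.89 and 0.733. What raised the input was not tested. It was highest at Ugt2b36 (2.80), Ugt2b5 (2.67) and Ugt2b1 (2.34) and lowest at Ugt3a2 (1.42) and Ugt2b38 (1.29). The excess was spread over the windows and did not come from a few bins. The highest input bin in any of the windows was 11, none reached 20 times the genome mean, and a median of 38.2% of bins had no input read, compared to 59.2% for all genes. Against the genome mean in place of the local input, RXRα was therefore 4.16-fold at the median gene, so that the choice of the denominator moved the value by a factor close to the input level. The part of the raised input in the called regions was not tested.

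The share of 32-base words that occur once in the genome ordered the genes partly as the input did. It was lowest within 10 kb of Ugt3a2 (56.9%) and Ugt2b38 (58.9%), the same 2 genes that had the lowest input, and highest at Ugt2b35 (87.1%) and Ugt2b5 (84.7%). Ugt2b36, with the highest input, had 78.2%. A link between this share and the input was not tested. Within 1 kb of the start the share ranged from 98.3% at Ugt2b34 to 62.0% at Ugt2b5 and 39.3% at Ugt2b38. At Ugt2b38, Ugt2b5 and Ugt2b37, respectively 43.0%, 36.9% and 22.3% of the words in this window were found again near or in another of the 10 genes, and at the other 7 genes 0% to 5.55%. Values at the starts of Ugt2b5, Ugt2b37 and Ugt2b38 may thus include reads of one another or lack reads that fit more than 1 of them, which cannot be told apart. The strong regions upstream of Ugt2b34, that near −7964 of Ugt2b5 and that near −2783 of Ugt3a1 lay in sequence that is 100% unique by this measure, whereas that at −3004 of Ugt2b5 was 71.3% unique.

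**Figure D4:**
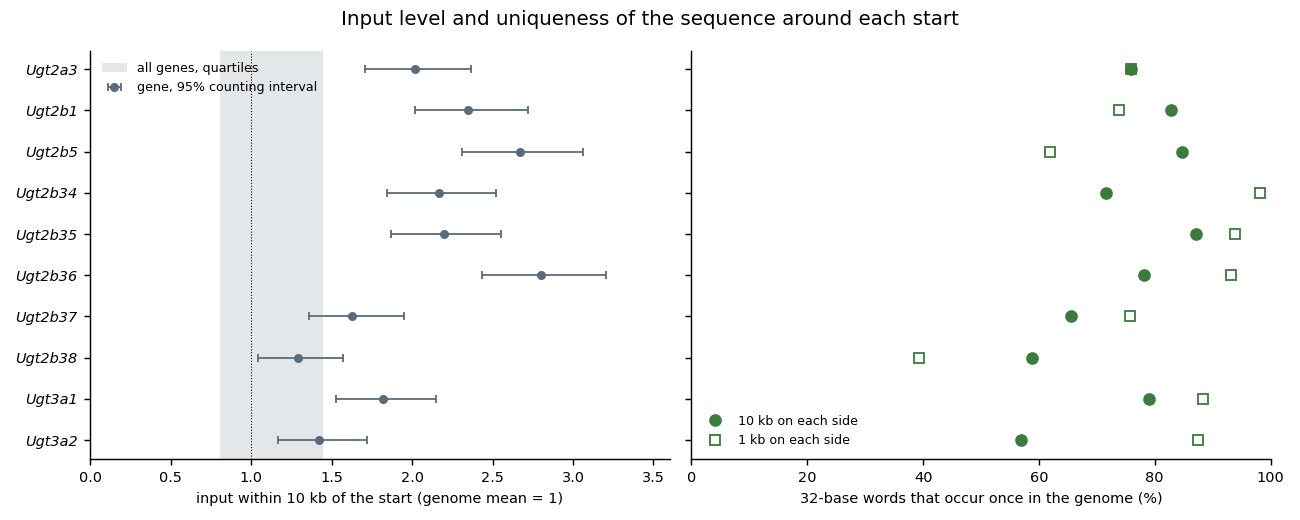
Left, input within 10 kb of each start relative to the genome mean, with 95% counting intervals and the quartiles of all genes as a grey band. Right, the share of 32-base words that occur once in the genome within 10 kb (circles) and 1 kb (squares). Within 1 kb this share is lowest at Ugt2b38 (39.3%), which also has the lowest input of the 10 within 10 kb (1.29).

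Along the whole Ugt2 cluster there were 32 RXRα regions and 21 filtered RARα peaks among 194 listed ones. Of the regions, 16 lay more than 10 kb from any of the 8 starts, as did 9 of the filtered peaks. The RXRα to input ratio of the cluster was 1.77 (1.70 to 1.84). The highest ratio of all lay between genes, at −36116 from the Ugt2a3 start (chr5:87802209-87802464), where the signal reached 86 over an input of 0, a ratio of 143 to the mean input, and the RARα peak on it had a score of 20, equal to the limit and so not counted as filtered. Together with 3 further regions, of which 2 carried filtered RARα peaks (scores 33 and 22), it formed a group within 7 kb. Another intergenic region, at −15805 from the Ugt2b1 start, held 71 over 1 in its bin of highest ratio, with a RARα score of 18. The region in the last, untranslated part of Ugt2b35 (31 over 0) lay in sequence of which only 22.9% was unique. The Ugt3 pair held 4 RXRα regions and 1 filtered RARα peak, and its ratio was 1.37 (1.22 to 1.54).

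**Figure D5:**
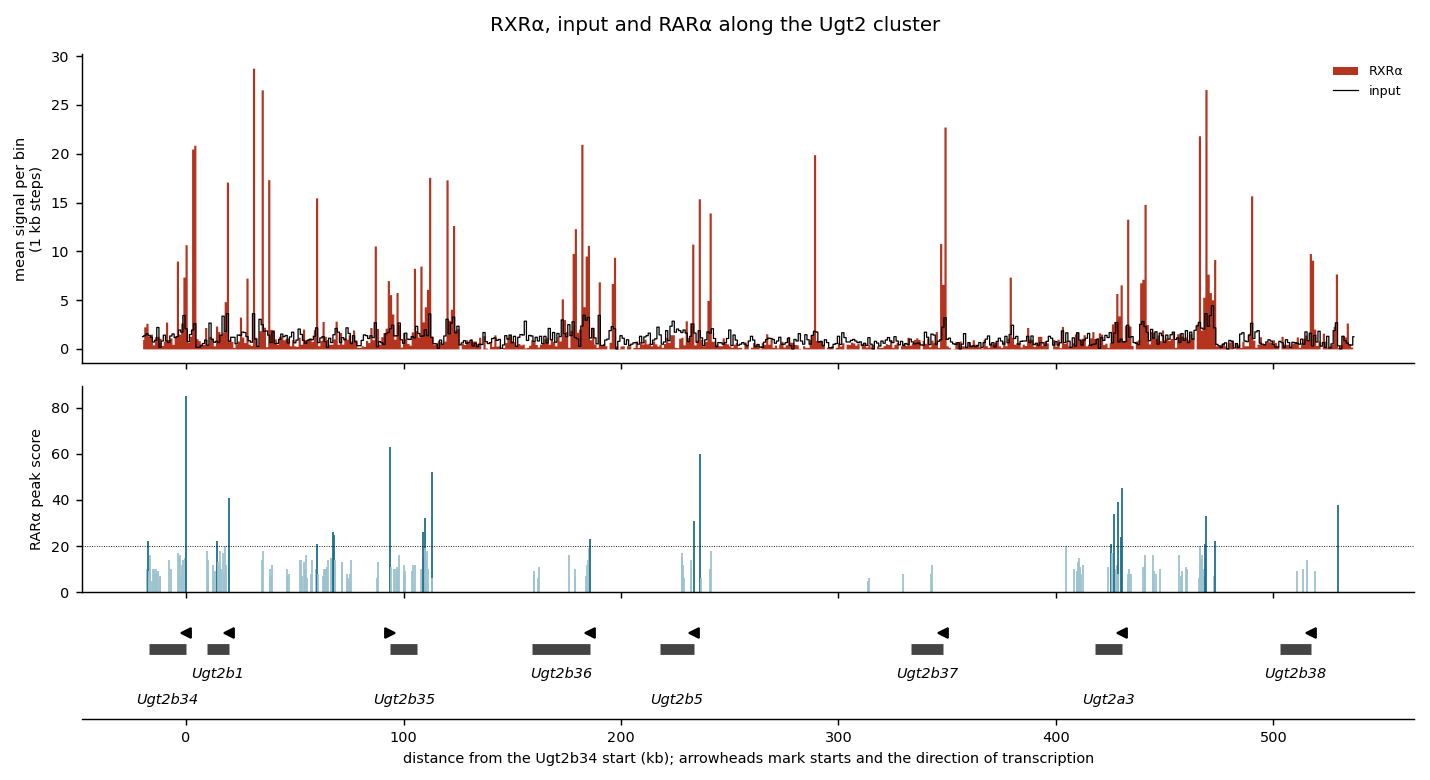
Mean signal per bin in steps of 1 kb for RXRα (red) and input (black line), scores of listed RARα peaks (dark over 20, light up to 20) and gene bodies with arrowheads at the starts, against the distance from the Ugt2b34 start in kb. RXRα is gathered at narrow sites near the starts and between genes, the highest filtered RARα score (85) is at Ugt2b34, and few RARα peaks are listed around Ugt2b37.

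The rest of the glucuronidation pathway was covered by a list of 15 further genes, of which 14 were found in the annotation (13 different starts, since Ugt1a6a and Ugt1a6b share one). Within 10 kb of the start, 6 of the 14 had a filtered RARα peak, compared to 52.2% of all genes. An RXRα region was present in 11, compared to 39.8%, and a co-localized peak in 4, compared to 23.5%. The median ratio of the 14 within 10 kb was 2.28, compared to 1.09 for all genes. All 8 Ugt1a genes had an RXRα region, and 2 had a filtered RARα peak. Their windows overlap, since they are alternative first exons of 1 locus, so that a region can count for more than 1 of them. Ugt1a1, the main bilirubin-conjugating enzyme, had a top RARα score of 73 and an RXRα ratio of up to 156. This ratio came from a bin of 94 over an input of 0 that also lay within 10 kb of the Ugt1a2 start. The input within 10 kb of the Ugt1a1 start was 5.2 times the genome mean. Ugdh, which makes UDP-glucuronic acid, had a RARα peak of 161 and a region of 66.4. Slc35d1, which carries UDP-sugars into the endoplasmic reticulum, had a RARα peak of 56, a region of 76 and the highest ratio within 1 kb of the list, 13.7. Ugp2, which makes UDP-glucose, and Gusb, the β-glucuronidase that removes the sugar, had RARα peaks of 84 and 59 and no RXRα region within 10 kb of the start, while their bodies held 2 and 1 further away. Ugt2a1, known from nasal tissue and a neighbour of the cluster, had no filtered RARα peak, a region 8 kb from its start and a ratio within 1 kb of 0.345. Ugt8a, which acts in myelin lipid synthesis, had neither.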

How the data were processed

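For RXRα and input the authors aligned reads with Bowtie and deposited the signal, the number of extended reads over each 32 bp bin, and bins without reads are not listed. For RARα the deposited MACS list gives a score per peak and a false discovery rate in percent, which was not used. The methods put the background limit at 20-fold over input, and the list does not state that its score is this fold. The methods name mm10 for alignment, but the labels and file headers name mm9, and 0 RARα peaks lay beyond an NCBI37 chromosome end, so NCBI37/mm9 was used.

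The RXRα track was scaled to the mean of the input track. Bins with at least 20 times the larger of local and mean input were joined within 200 bp. Reads are signal divided by 5, the bins 1 read covers. A peak counted for every gene whose 5′ end lay within 10 kb of its summit, and an RXRα region by its midpoint. The score, distance, 20-fold and 25% overlap limits follow the study's methods. Region detection was tested on simulated tracks with planted regions, as a check of the code only. The genes, lists and limits were chosen with earlier results of these data known, and the genes named are the 10 enzymes, the pathway list and the tissue markers. Aligned identities use a local alignment (before starts, regions) or a global one (coding sequence). Scripts ran in Python 3.11.15 with pysam 0.24.0, scipy 1.17.1, pandas 2.3.3 and numpy 2.4.6. The sequence before the Ugt3a2 start is not reported here. No sample was left out.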

Additional observations from a re-analysis of the deposited data

How the results depend on the processing

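The count of genes with a filtered RARα peak was 10 with no score threshold (67.3% of all genes), 7 with a distance of 1 kb (40.9%), the nearest gene alone (45.7%) or the start of any transcript (55.1%), and fell to 3 (Ugt2b5, Ugt2b34 and Ugt2b35) at a score over 50, which 24.6% of all genes reached. The count with an RXRα region was 10 at 5 times input (86.7% of all genes), at 10 times (60.2%) and with mean input alone (52.0%), 7 at 30 times (27.9%) and within 1 kb (21.5%), and 9 with unscaled tracks (40.2%), the nearest gene (34.1%) or any transcript start (43.6%). Co-localized genes numbered 4 with an overlap of 1 bp (23.7% of all genes) or 50% (23.2%), and 3 with the gene body in place of the distance (20.9%). They numbered 6 with no score threshold (31.2% of all genes) and 7 at 10 times input (38.9%). The median ratio of 2.17 moved to 3.99 within 1 kb, 1.5 over the gene body and 4.16 against the genome mean input. Over the gene body the ratio was 1.73 for Ugt2a3, 0.841 for Ugt2b5, 1.55 for Ugt2b34, 2.14 for Ugt2b36, 1.26 for Ugt2b37, 1.24 for Ugt2b38, 1.46 for Ugt3a1 and 1.05 for Ugt3a2, while Ugt2b1 and Ugt2b35 stayed within their intervals. Against the genome mean input it was 4.54 for Ugt2a3, 4.08 for Ugt2b1, 5.11 for Ugt2b5, 7.18 for Ugt2b34, 4.24 for Ugt2b35, 7.25 for Ugt2b36, 4.08 for Ugt2b37, 2.69 for Ugt2b38, 4.08 for Ugt3a1 and 2.28 for Ugt3a2. Leaving out bins of 20 or more times the mean input changed nothing, since there were none. The looser motif limits were chosen after seeing the data. No paired analysis was possible because there was 1 library per antibody. Input depth limits single ratios, since 13 of the 22 regions had no input read in their bin of highest ratio.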

Other observations

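Further RXRα regions of the Ugt2 cluster lay far from any start and beside no listed RARα peak. These included regions at +26659 from the Ugt2b35 start (56 over an input of 1), −56331 from the Ugt2b5 start (41 over 1) and −31627 from the Ugt2b37 start (21 over 0). Ugt3a1 held 2 intronic regions, at +22113 (19 over 0) and +28449 (13 over 0), of which the second is 71.9% unique in sequence.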
